A study of Mus musculus with 12 samples.

Results

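The 7 transcription factors Otx2, Pou3f1, Zic2, Zic5, Foxd3, Sall4 and Etv5 mark the formative, or epiblast-like, state of pluripotency, and their transcripts were followed through retinoic acid (RA) differentiation of mouse embryonic stem cells (mESCs). They were taken by gene symbol, not by a measured value, from a read count table of 24495 genes, and all 7 were found. The list itself was chosen with earlier results of these data known. RNA-seq had been made from CCE-Nanog-GFP mESCs, which carry a GFP reporter of Nanog and had been sorted for GFP, and from embryoid bodies grown from them without LIF and with all-trans RA. The control line, shSC, is labeled WT and scr and carries a scrambled shRNA, while shCTSL, labeled as a CTSL knockdown (KD), carries an shRNA against the protease cathepsin L. Both lines were made by lentiviral transduction and puromycin selection, and the labels do not say which CTSL hairpin the sequenced line carries. Each line was sampled as undifferentiated mESCs (Day 0) and after 2 and 4 days with RA (Day 2, Day 4), and the 6 groups hold 2 biological replicates each, 12 libraries in all.

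Naive pluripotency is the state of the early epiblast and is what LIF holds in culture. On the way to lineage commitment, cells pass through a formative phase in which Otx2 and Pou3f1 (Oct6) redirect Oct4 to new enhancers, Foxd3 and the Zic factors help to open those enhancers, and Etv5, an ETS factor downstream of FGF and ERK signaling, takes part in leaving the naive state. Sall4 works with the core pluripotency factors from the naive state onward. Several of these genes are used again later, Otx2 in the anterior brain and visceral endoderm, Pou3f1 and the Zic genes in neural tissue, and Foxd3 in the neural crest.

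The libraries held 11171111 to 27155553 counted reads, and 15532 genes, among them all 7 factors, passed the filter on low counts. Values are given as CPM, read counts scaled to a common library size after TMM normalization. A gene is called changed when its p-value, from the quasi-likelihood test of edgeR adjusted by Benjamini-Hochberg over all 15532 genes, is under 0.05 and the change is at least 1.5-fold. The targeted gene Ctsl stood at 137 and 147 CPM in shSC and at 39.2 and 37.5 in shCTSL at Day 0, and Ctsl stayed lower in the knockdown line on every day, with no overlap between the lines. It was called at Day 0 (log2 difference −1.89, adjusted p = 0.00246) and Day 2 (−1.06, adjusted p = 0.0342) but not at Day 4 (−0.83, adjusted p = 0.0896), where it was called with both shCTSL Day 2 libraries left out (−0.82, SE 0.07, adjusted p = 1.88e-05). The 2 shCTSL Day 2 libraries stood apart from the rest. The SD of their log2 ratio over genes was 0.684 against 0.247 to 0.311 in the other 5 groups, and the ribosomal transcript Rn45s took 3.43% of counts in replicate 1 and 0.553% in replicate 2. Of the shCTSL Day 2 against Day 0 values, those of Otx2 lay between −4.15 and −3.92, of Pou3f1 between −3.12 and −2.88, of Zic2 between 2.305 and 2.44, of Foxd3 between −5.05 and −4.76 and of Sall4 between −1.33 and −1.096 on the log2 scale when either library was left out, each of them called. The mESC markers Pou5f1 and Nanog were abundant at Day 0, with Pou5f1 at 1444 to 1567 CPM in the 4 libraries. In whole cultures, fewer cells of a type and less RNA per cell cannot be told apart. RA, the removal of LIF, growth as embryoid bodies and time changed together after Day 0, so their parts cannot be told apart either.

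The promoters of 4 of the 7 factors had an entry in the RefSeq promoter table (build GRCm38.p6), and they are shown for the contrast in base composition between Otx2 and Foxd3, both of which fell steeply. Each window runs from 250 bases before to 50 bases after a transcription start, and each matched mm9, the build used for the counts, at exactly 1 place. Only bases upstream of the annotated gene are printed, 5′ to 3′ along the strand of the gene. Capitals mark any match to the motifs searched.
Otx2, chr14:49287320-49287569, minus strand: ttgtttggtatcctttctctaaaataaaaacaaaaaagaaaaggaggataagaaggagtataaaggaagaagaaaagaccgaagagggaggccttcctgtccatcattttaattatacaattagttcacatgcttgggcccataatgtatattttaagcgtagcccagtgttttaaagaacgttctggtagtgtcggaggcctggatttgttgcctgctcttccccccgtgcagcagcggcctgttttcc
Foxd3, chr4:99322740-99322989, plus strand: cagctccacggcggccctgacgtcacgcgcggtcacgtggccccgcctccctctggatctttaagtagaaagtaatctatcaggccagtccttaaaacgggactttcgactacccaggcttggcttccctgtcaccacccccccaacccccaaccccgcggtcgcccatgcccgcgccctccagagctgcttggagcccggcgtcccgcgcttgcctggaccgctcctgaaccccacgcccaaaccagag
Zic5, chr14:122864900-122865130, minus strand: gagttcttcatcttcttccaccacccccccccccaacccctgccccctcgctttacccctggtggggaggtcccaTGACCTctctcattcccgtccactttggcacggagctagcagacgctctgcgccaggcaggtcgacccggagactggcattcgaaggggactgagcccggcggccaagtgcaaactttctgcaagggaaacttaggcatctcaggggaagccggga
Etv5, chr16:22439793-22439893, minus strand: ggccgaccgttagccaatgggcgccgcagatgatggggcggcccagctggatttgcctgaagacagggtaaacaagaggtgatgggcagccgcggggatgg
The Otx2 window held 6 CpG dinucleotides at a GC content of 41.7%, the lowest of these 4, against a median of 7 CpG over all 32851 promoters in the table. The windows of Zic5, Foxd3 and Etv5 held 15, 25 and 37 CpG at 62.7%, 65.7% and 74.0% GC, and 94.4% of all promoters held fewer CpG than that of Etv5. The windows of the further Otx2 starts held 8, 16 and 11 CpG at 47.7%, 51.0% and 53.7% GC. That of the second Etv5 start held 19 CpG at 60.0% GC. Which start these cells use was not tested. Of 5 motifs searched on both strands, the octamer ATGCAAAT, the OTX site TAATCC, the ETS core CCGGAA, the nuclear receptor half-site AGGTCA and the SOX site ACAAAG, the shown windows held only the half-site, as TGACCT 175 bases before the Zic5 start. That motif is in 16.3% of all promoters, the octamer in 1.74%, the OTX site in 7.06%, the ETS core in 14.9% and the SOX site in 18.7%. Among the further starts listed for Otx2 and Etv5, an OTX site lies 211 bases before the third Otx2 start, inside the gene, and a SOX site spans the second Etv5 start.

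From Day 0 to Day 2, the formative factors fell in both lines, with the exception of the 2 Zic genes. Of the 7 factors, 5 were called lower and Zic2 was called higher in shSC, and the same counts held in shCTSL. Over all genes tested, 25.3% were called lower and 29.3% higher in shSC, and 24.6% and 30.9% in shCTSL. By Day 4 the same 5 factors, Otx2, Pou3f1, Foxd3, Sall4 and Etv5, were called lower than at Day 0 in each line and Zic2 was still called higher, where 28.7% of all genes were called lower and 32.1% higher in shSC and 27.6% and 32.3% in shCTSL. Between Day 2 and Day 4, Otx2, Zic2, Foxd3 and Etv5 were called lower in both lines, against 12.4% of all genes in each. Pou3f1 was called higher over this interval in shSC, where 11.4% of all genes were, and no factor was called higher in shCTSL, where 11% were. The libraries of a line did not overlap between Day 0 and Day 2 for 6 of the 7 factors in either line, Zic5 being the exception, and neither did those of 89.7% of all genes in shSC and 75.8% in shCTSL. The 3 comparisons within a line share libraries, so their values are not independent. With such wide change over all genes, the number of factors that moved is less informative than the size and order of their changes.

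**Figure D1:**
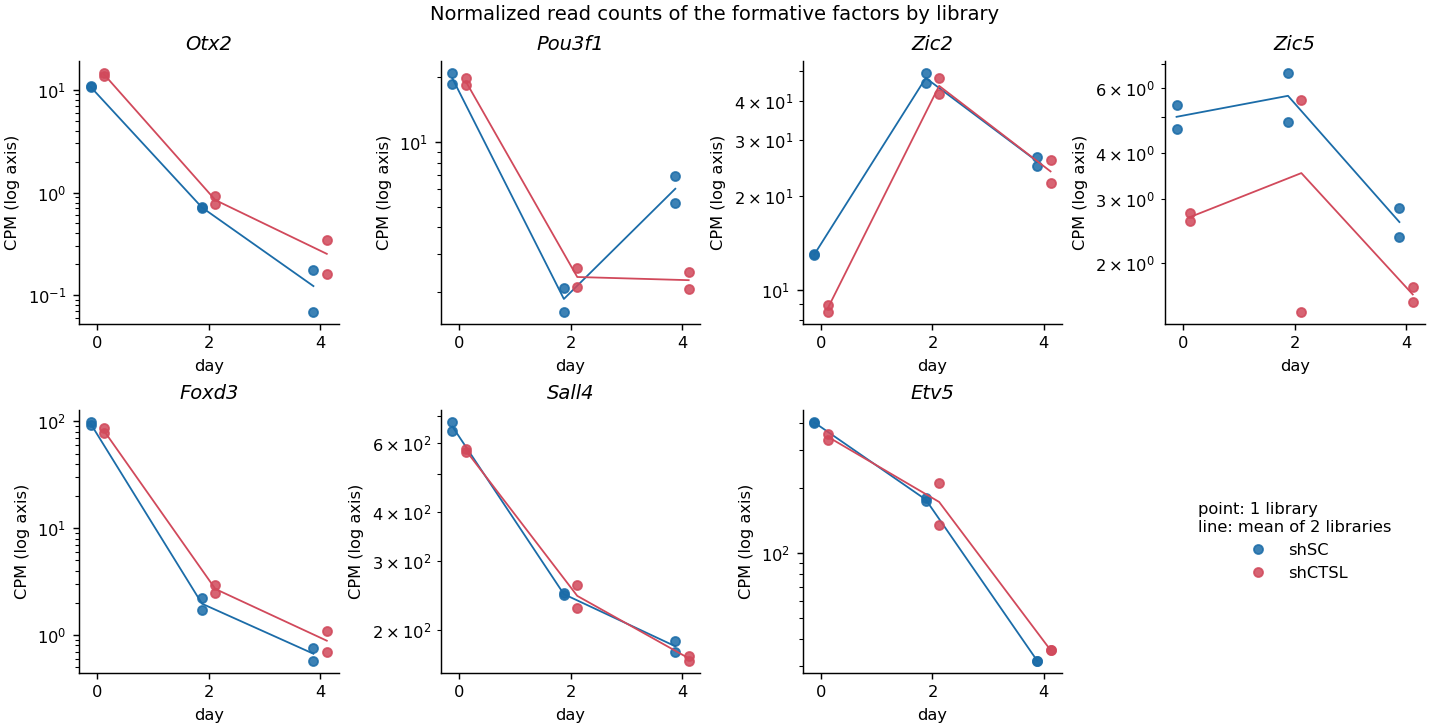
CPM of the 7 factors (log axes, each panel with its own range) against day, with 1 point for each library and lines through the means of the 2 libraries of shSC (blue) and shCTSL (red). Foxd3 and Otx2 drop at Day 2 and again at Day 4, Zic2 peaks at Day 2, and Pou3f1 recovers to 5.20 and 6.89 CPM in the shSC Day 4 libraries while the shCTSL Day 4 libraries stay at 2.07 and 2.49.

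Foxd3 (mm9 chr4:99322990-99325362, plus strand, 1 exon), a forkhead factor of the epiblast and neural crest, had the steepest fall of the 7. It was counted at 92.1 and 98.4 CPM in the shSC Day 0 libraries, at 2.22 and 1.71 at Day 2, and at 0.574 and 0.763 at Day 4. In shCTSL the libraries stood at 85.9 and 77.6, then 2.46 and 2.94, then 1.08 and 0.689. All Day 0 libraries lay far above all later ones, and the days did not overlap within a line. Between Day 0 and Day 2 the log2 change of the shSC level was −5.58 (SE 0.20, adjusted p = 2.02e-08), and that of the shCTSL level was −4.91 (SE 0.19, adjusted p = 3.64e-08), so that shSC kept 2.06% of the Day 0 level. A further fall followed from Day 2 to Day 4, −1.60 in shSC and −1.62 in shCTSL (adjusted p = 0.0015 and 0.000954). At Day 4 shSC kept 0.702% of its Day 0 level. The 2 Day 4 libraries of a group held only 24 and 34 Foxd3 reads in shSC and shCTSL, and the later fall in shCTSL was not called by a fit of the compared libraries alone (adjusted p = 0.0525) or by limma-voom (adjusted p = 0.161).

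Otx2 (chr14:49277354-49287319, minus strand), the homeodomain factor that drives exit from the naive state and later marks the anterior brain, followed the same course from a lower start. The shSC libraries held 10.8 and 10.6 CPM at Day 0, 0.730 and 0.700 at Day 2, and 0.177 and 0.0693 at Day 4. The shCTSL libraries held 13.7 and 14.5, then 0.923 and 0.766, then 0.162 and 0.344. Each day lay below the one before it in both lines, with no overlap. The first step amounted to −3.88 on the log2 scale for shSC (SE 0.23, adjusted p = 4.04e-07) and for shCTSL to −4.07 (SE 0.23, adjusted p = 3.56e-07). From Day 2 to Day 4 it fell again, at a log2 change of −2.36 for shSC (SE 0.43, adjusted p = 0.00245), and for shCTSL of −1.67 (SE 0.38, adjusted p = 0.00789). The Day 4 libraries rest on 4 and 1 reads in shSC and on 3 and 7 in shCTSL, close to the limit of detection. On pooled counts the Day 4 level was 0.188 times that of Day 2 in shSC (95% exact binomial interval 0.0578 to 0.479, counting error only) and 0.31 times in shCTSL (0.136 to 0.645). The Day 4 against Day 2 call in shCTSL did not hold when replicate 1 of shCTSL Day 4 was omitted (−1.26, adjusted p = 0.097), in a fit of the compared libraries alone (adjusted p = 0.111) and with limma-voom (adjusted p = 0.324).

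Pou3f1 (chr4:124334889-124337899, plus strand), which encodes the POU factor Oct6, fell by Day 2 in both lines and rose again in shSC. In shSC it stood at 18.5 and 20.8 CPM at Day 0, at 1.63 and 2.10 at Day 2, and at 6.89 and 5.20 at Day 4. In shCTSL it stood at 19.7 and 18.3, then 2.58 and 2.13, then 2.49 and 2.07. The Day 4 shSC libraries lay above every Day 2 library and above both Day 4 shCTSL libraries, and in shCTSL the Day 2 and Day 4 libraries overlapped. On the log2 scale the early change was −3.41 for shSC (SE 0.21, adjusted p = 4.92e-07) and for shCTSL −3.02 (SE 0.21, adjusted p = 1.06e-06). From Day 2 to Day 4 Pou3f1 rose in shSC by 1.72 on a log2 scale (SE 0.21, adjusted p = 0.000236), while its log2 change in shCTSL was −0.04 (SE 0.23, adjusted p = 0.915). At Day 4 shSC therefore held 30.8% of its Day 0 level and shCTSL 11.98%.

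Sall4 and Etv5 were the most abundant of the 7 and declined more gradually. Sall4 (chr2:168573832-168593443, minus strand), a zinc finger factor of the pluripotency network, went from 677 and 641 CPM at Day 0 to 245 and 249 at Day 2 and 187 and 176 at Day 4 in shSC. In shCTSL its libraries stood at 568 and 578, then 228 and 260.2, then 167 and 172. In each line the 3 days were fully separated, with most of the drop before Day 2. By Day 2 the log2 change reached −1.42 for shSC (SE 0.10, adjusted p = 1.17e-06) and for shCTSL −1.23 (SE 0.10, adjusted p = 2.8e-06). From Day 2 to Day 4 the log2 changes were −0.44 and −0.53, with edgeR adjusted p-values of 0.00706 and 0.00288, both under 1.5-fold and so not called. Without shCTSL Day 2 replicate 1 the later value in shCTSL was −0.64 and was called. A noncoding RNA on the opposite strand, Gm14261, overlaps the 5′ end of Sall4 and is not in the count table, and without a stated strand setting its reads and those of Sall4 cannot be told apart.

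Etv5 (chr16:22381382-22439792, minus strand), the PEA3-family ETS factor, had a larger log2 change after Day 2 than before it. The shSC libraries held 402 and 406 CPM at Day 0, 174 and 181 at Day 2, and 31.8 and 31.8 at Day 4. The shCTSL libraries held 336 and 359, then 135 and 211, then 35.7 and 35.5. The days did not overlap in either line, and the 2 shCTSL Day 2 libraries were the only replicates far apart. Its log2 fold change was −1.19 to Day 2 (SE 0.17, adjusted p = 0.000158) and −2.48 from Day 2 to Day 4 (SE 0.18, adjusted p = 9.61e-06) in shSC. For shCTSL the early change was −1.003 (SE 0.17, adjusted p = 0.000482), and the later one was −2.28 (SE 0.18, adjusted p = 1.66e-05). The first of these was −0.67 when shCTSL Day 2 replicate 1 was left out and −1.36 when replicate 2 was, and both were called.

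Zic2 and Zic5 encode zinc finger factors and lie head to head on chromosome 14, Zic5 at chr14:122856017-122864899 on the minus strand and Zic2 at chr14:122874604-122879074 on the plus strand, with 9704 bases between them. Zic2 was the factor called higher than at Day 0 on both later days. Its shSC libraries held 13.0 and 12.9 CPM at Day 0, 45.7 and 49.2 at Day 2, and 26.6 and 24.8 at Day 4. Its shCTSL libraries held 8.95 and 8.53, then 47.4 and 42.1, then 21.9 and 25.9. Day 2 was the highest day and Day 0 the lowest in both lines, with no overlap between days. The rise to Day 2 measured 1.87 on the log2 scale for shSC (SE 0.13, adjusted p = 1.16e-06) and for shCTSL 2.35 (SE 0.14, adjusted p = 3.89e-07), followed by −0.88 and −0.90 from Day 2 to Day 4 (adjusted p = 0.000533 and 0.000521). The Day 4 level remained above Day 0 by a log2 difference of 0.99 in shSC and 1.45 in shCTSL. The later fall in shCTSL was not called by a fit of the compared libraries alone (adjusted p = 0.0607).

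Zic5 was the least abundant of the 7 at Day 0. It was called in no comparison by the edgeR fit of all 12 libraries with the filter on low counts. The shSC libraries held 4.65 and 5.39 CPM at Day 0, 4.85 and 6.61 at Day 2, and 2.83 and 2.36 at Day 4. The shCTSL libraries held 2.61 and 2.74, then 1.48 and 5.58, then 1.57 and 1.72. Both Day 4 libraries lay below the Day 0 and Day 2 libraries in shSC, while in shCTSL one Day 2 library lay below every other library and its partner lay among the highest. Replicate 1, the lower of them, is the library with 3.43% Rn45s, and whether the 2 are linked was not tested. The Day 2 against Day 0 value in shSC was 0.18 (adjusted p = 0.724), and the Day 4 against Day 2 difference was −1.12 (SE 0.44, adjusted p = 0.0809). The latter was called without a filter on low counts (adjusted p = 0.0155), with the compared libraries alone (adjusted p = 0.00079) and with limma-voom (adjusted p = 0.00157). It was also called without both shCTSL Day 2 libraries (−1.13, adjusted p = 0.000193). Against Day 0 the Day 4 value for shSC came to −0.94 (SE 0.46, adjusted p = 0.0903), and for shCTSL it came to −0.69 (SE 0.53, adjusted p = 0.268), and with those libraries left out both were called, at −0.92 (adjusted p = 0.00106) and −0.67 (adjusted p = 0.0336). The first of these was also called without a filter on low counts, with the compared libraries alone and with limma-voom. In shCTSL the Day 2 against Day 0 value was 0.45 (SE 0.49, adjusted p = 0.434). Leaving out either Day 2 library of that line gave opposite signs, 1.104 when replicate 1 was dropped and −0.85 when replicate 2 was, so no direction can be given. The shCTSL Day 4 against Day 2 value was −1.15 (adjusted p = 0.0992). It was called without a filter on low counts (adjusted p = 0.0221), but it turned to 0.16 when Day 2 replicate 2 was dropped.

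**Figure D2:**
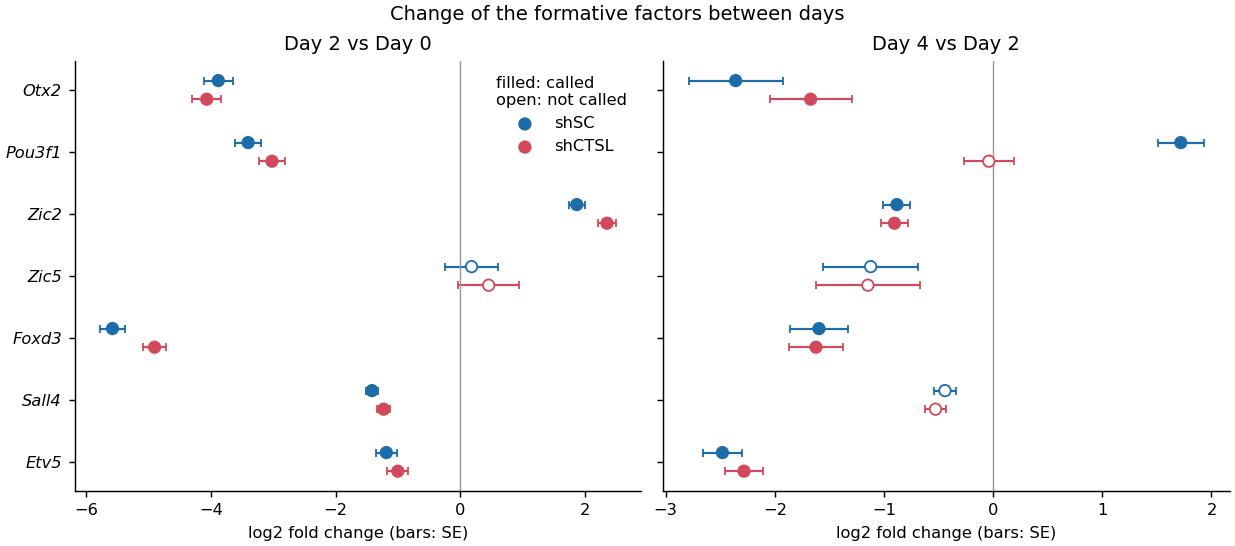
Log2 fold change of the 7 factors from Day 0 to Day 2 (left) and from Day 2 to Day 4 (right) in shSC (blue) and shCTSL (red), with bars for the standard error. Filled points are called and open points are not. Foxd3 has the largest early fall, Zic2 is the only factor called higher at Day 2, and Pou3f1 is the only factor called higher between Day 2 and Day 4, in shSC.

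The order of the 7 transcripts changed with differentiation. Per kilobase of exonic length, the shSC Day 0 means were 119 CPM for Sall4, 98.5 for Etv5, 40.1 for Foxd3 and 6.52 for Pou3f1. Otx2 and Zic2 followed at 3.14 ± 0.0323 and 3.10 ± 0.0149 (SD, n = 2), which do not differ beyond their spread, and Zic5 was last at 1.03. By Day 4 Sall4 remained first in shSC, at 32.8 CPM per kilobase, and Etv5 and Zic2 were next at 7.75 and 6.14. Foxd3 had moved from the third place to the sixth, at 0.282, and Otx2 was last at 0.0362. In shCTSL the Day 4 order was the same down to Pou3f1, at 0.757 CPM per kilobase. Foxd3 and Zic5 came next at 0.373 ± 0.117 and 0.337 ± 0.022, and do not differ beyond their spread.

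No factor was called between the lines on any of the 3 days. The question is whether reduced cathepsin L, the protease studied here, shifted the formative transcripts. By the labels each arm is a single line, so an effect of the knockdown cannot be told apart from other differences between the lines. Over all genes edgeR called 0.0386% at Day 0, 0.0644% at Day 2 and 0.0129% at Day 4. Averaged over the 3 days 0.27% of all genes were called and none of the 7 factors, whose widest values were 0.51 for Otx2 and −0.74 for Zic5 on the log2 scale (adjusted p = 0.243 and 0.188). At an unadjusted p under 0.05 the counts over all genes were 1127, 3014 and 1897 on the 3 days. The differences between the lines in the change from Day 0 to Day 2 and from Day 2 to Day 4 gave 0 calls among all genes (0%), with 1716 and 753 genes at an unadjusted p under 0.05. The test used 1 shared spread from all 6 groups, the shCTSL Day 2 pair included. With both of these libraries left out, an alternative chosen after seeing the data, 1.37% of all genes were called at Day 0 and 5.89% at Day 4. With DESeq2 on all 12 libraries 0.309% and 0.85% were called.

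Pou3f1 at Day 4 showed the widest difference between the lines, at a log2 fold change of −1.42 in shCTSL against shSC (SE 0.21, adjusted p = 0.0833), which is not called. The shCTSL mean was 37.7% of the shSC mean, with 88 reads in the 2 shCTSL libraries and 231 in the 2 shSC libraries. With both shCTSL Day 2 libraries left out the value was −1.43 and was called (SE 0.20, adjusted p = 0.000396), and it was also called by DESeq2 (−1.42, adjusted p = 4.99e-05), by limma-voom (adjusted p = 0.00356), without a filter on low counts (adjusted p = 0.00334) and when only the 4 Day 4 libraries were fitted (adjusted p = 0.00453). RLE normalization, a filter of 1 CPM and the replicate block each left it uncalled. Over these 8 alternatives the log2 fold change lay between −1.45 and −1.41 and the adjusted p between 4.99e-05 and 0.157. With each library left out in turn it ran from −1.60 to −1.20 (adjusted p from 0.00032 to 0.918), and it was called when either shCTSL Day 2 library was omitted. For Pou3f1, the interaction of line with the Day 2 to Day 4 change was −1.76 (SE 0.31, adjusted p = 0.932) and was not called, but DESeq2 called it (adjusted p = 0.0154). At Day 0 and Day 2 the line differences of Pou3f1 were −0.05 and 0.34, neither of them called.

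Neural markers, related POU factors and a ribosomal transcript were compared between the lines at Day 4 beside Pou3f1. The 5 neural markers (Sox1, Pax6, Nes, Tubb3 and Neurog2) summed to 143 to 156 CPM in shSC and 126 to 137 in shCTSL, none of them was at 0 in a Day 4 library, and 0 of 5 were called between the lines. Pax6, Nes and Tubb3 overlapped between the lines, and Sox1 and Neurog2 were lower in both shCTSL libraries. The POU factors Pou3f2 and Pou3f3 had log2 differences of −0.69 and −0.73 (adjusted p = 0.343 and 0.156), and with both shCTSL Day 2 libraries left out both were called. Rn45s took 1.06 and 1.43% of counts in the shSC Day 4 libraries and 0.228 and 0.376% in the shCTSL ones. The part of these measures in the Pou3f1 difference was not tested.

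The other factors differed less between the lines. Zic5 was lower in both shCTSL libraries at Day 0 and at Day 4, at log2 differences of −0.91 and −0.67 (adjusted p = 0.766 and 0.54), and the Day 0 value was called with both shCTSL Day 2 libraries left out (−0.91, adjusted p = 0.0422) and when only the 4 Day 0 libraries were fitted (adjusted p = 0.0182). At Day 2 its value was −0.64, and it moved to −1.94 without shCTSL Day 2 replicate 2, where it was called (adjusted p = 4.52e-05), and to −0.02 without replicate 1. Its mean over days of −0.74 became −1.18 without that replicate 2 and was called (adjusted p = 1.03e-05). Zic2 was also lower in shCTSL at Day 0, by a log2 difference of −0.57 (SE 0.14, adjusted p = 0.315), and its values at Day 2 and Day 4 were −0.08 and −0.11. Without both shCTSL Day 2 libraries the Zic2 value at Day 0 was −0.55 (edgeR adjusted p = 0.0318), under 1.5-fold and so not called. Otx2 was higher in both shCTSL libraries at Day 0 at 0.40 (SE 0.18, adjusted p = 0.697), a ratio of 1.32 on pooled counts (95% exact binomial interval 1.12 to 1.55, counting error only). At Day 4 its value of 0.90 (SE 0.55, adjusted p = 0.549) rests on 10 reads in shCTSL and 5 in shSC. Foxd3, Sall4 and Etv5 lay between −0.22 and 0.45 on all days. The libraries of the lines did not overlap for 6 of the 7 factors at Day 0, 3 at Day 2 and 4 at Day 4, where 51.3%, 45.5% and 61.5% of all genes tested did not overlap.

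**Figure D3:**
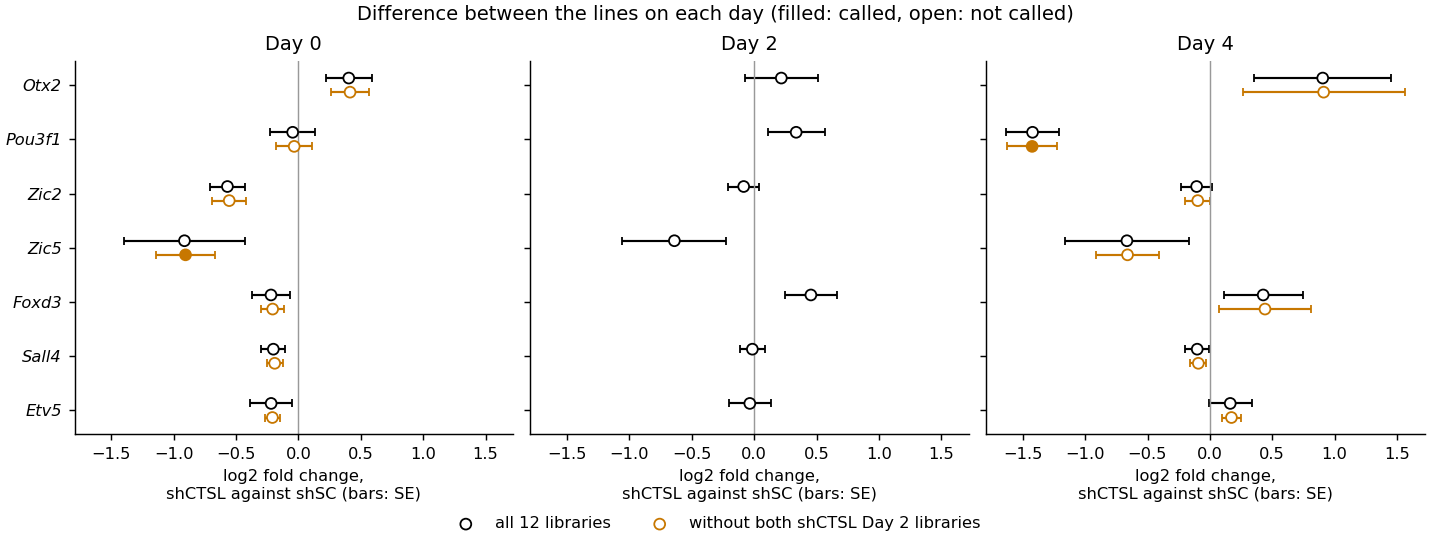
Log2 fold change of shCTSL against shSC for the 7 factors at Day 0, Day 2 and Day 4, with bars for the standard error, from all 12 libraries (black) and, for Day 0 and Day 4, without both shCTSL Day 2 libraries (orange). In the edgeR fit of all 12 libraries no factor is called. Without the shCTSL Day 2 libraries Zic5 at Day 0 (−0.91) and Pou3f1 at Day 4 (−1.43) are.

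The paralogs of the 7 factors, which share their DNA-binding domains, moved in both directions. Of 15 paralogs listed, 12 passed the filter on low counts, and 7 were called higher and 4 lower at Day 4 than at Day 0 in each line. Among all genes 32.1% were called higher and 28.7% lower in shSC, and 32.3% and 27.6% in shCTSL. The median log2 change of the paralogs was 1.99 in shSC and 2.14 in shCTSL against 0.03 and 0.06 over all genes. In the POU3F family Pou3f1 fell while Pou3f2 and Pou3f3, neural POU factors also known as Brn2 and Brn1, rose from under 1 CPM. Pou3f3 stood at 0.458 and 0.496 CPM at Day 0 and at 22.9 and 19.6 at Day 4 in shSC, and at 0.895 and 0.843 and then 12.1 and 13.7 in shCTSL. By Day 4 both shSC libraries therefore held more Pou3f2 and Pou3f3 than at any earlier day, and the log2 changes from Day 0 were 5.37 for Pou3f2 and 5.46 for Pou3f3 in that line, against 3.98 and 3.87 in shCTSL.

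The FOXD family showed the same exchange. Foxd2 stood at 0.152 and 0.248 CPM at Day 0 and at 55.9 and 66.2 at Day 4 in shSC, a log2 change of 8.17 (adjusted p = 1.11e-08), and its change in shCTSL was 6.66. Foxd1, a forkhead factor of the developing kidney stroma and retina, changed by 5.51 in shSC and 4.91 in shCTSL. Among the SALL genes Sall4 and Sall1 fell by Day 2 and Sall3 after it, while Sall2 rose from 10.9 and 9.73 to 135 and 134 CPM between Day 0 and Day 2 in shSC (3.71, adjusted p = 1.64e-07). In the ZIC family Zic1 was called higher at Day 4 than at Day 0, at log2 changes of 1.23 in shSC and 1.53 in shCTSL, and was not called at Day 2, where Zic2 was highest. Etv4, a paralog of Etv5, fell ahead of it, with a log2 change to Day 2 in shSC of −4.07 where Etv5 had −1.19. The Etv4 value of −0.50 from Day 2 to Day 4 was not called. The paralog Etv1 had mean shSC levels of 25.3 CPM at Day 0, 24.7 at Day 2 and 14.7 at Day 4. Otx1, Crx and Zic4 did not pass the filter, with no library above 0.632 CPM.

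**Figure D4:**
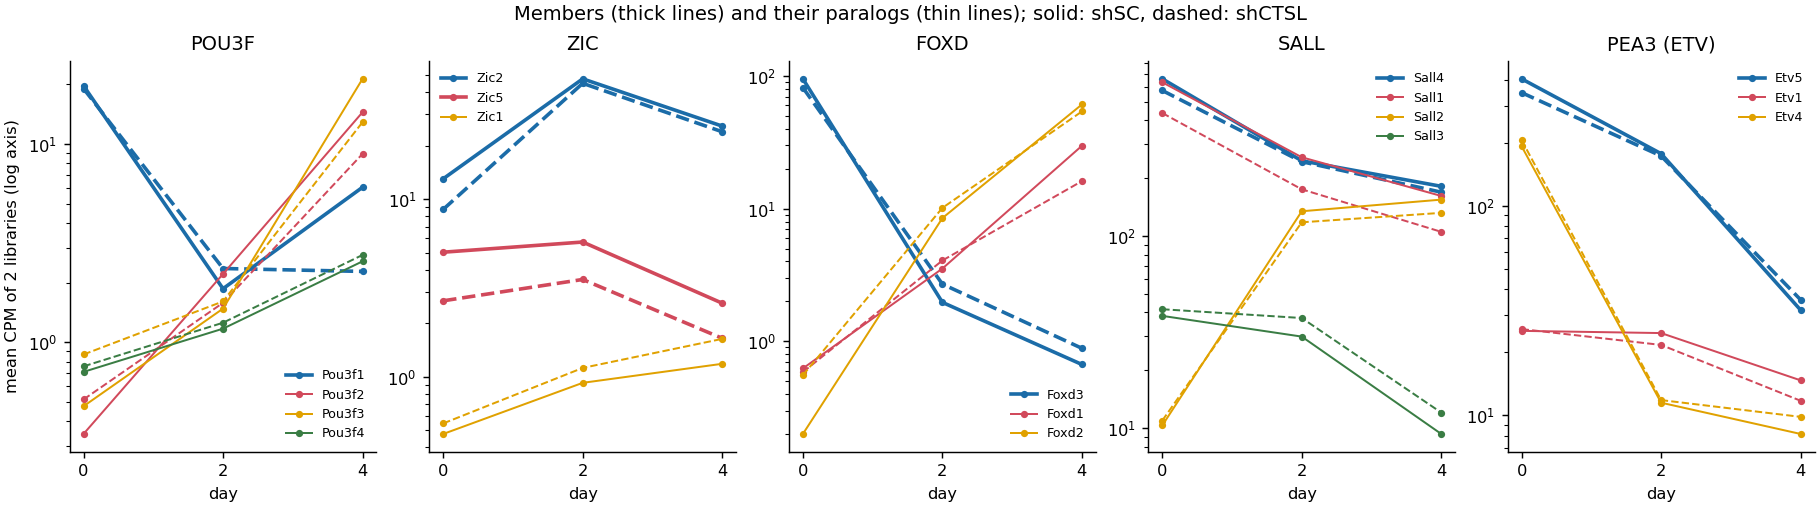
Mean CPM of 2 libraries (log axes) by day for the members (thick lines) and the listed paralogs that passed the filter, Foxd4 apart (thin lines), in shSC (solid) and shCTSL (dashed). Pou3f1 and Foxd3 fall while Pou3f2, Pou3f3, Foxd1 and Foxd2 rise, and Zic2 peaks at Day 2 while the Zic1 mean is highest at Day 4.

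Other genes used to mark the formative state did not move as 1 group. Of 12 such genes, 6 were called lower at Day 4 in each line, and 3 were called higher in shSC and 4 in shCTSL. The shares of all genes were 28.7% lower and 32.1% higher in shSC, and 27.6% and 32.3% in shCTSL. The median log2 changes of the 12 were −1.12 and −0.92 against 0.03 and 0.06 over all genes. Utf1, a chromatin factor of pluripotent cells, had log2 changes of −6.51 in shSC and −6.18 in shCTSL, and the methyltransferase gene Dnmt3b had −3.25 and −3.06. Fgf5, the ligand most used to mark the formative epiblast, was low throughout, though it rose from Day 0. It was among the genes called higher by Day 4 in each line, with all 12 libraries and without both shCTSL Day 2 libraries. Its log2 changes from Day 0 in the latter fit were 2.73 in shSC and 2.76 in shCTSL. It stood at 0.381 and 0.248 CPM at Day 0, 1.16 and 1.01 at Day 2, and 2.03 and 2.08 at Day 4 in shSC, and never passed 1.66 in shCTSL. Sox3 was high at Day 2 like Zic2, with 5.87 and 5.95 CPM at Day 0, 41.0 and 40.6 at Day 2 and 8.04 and 7.98 at Day 4 in shSC. Of the 7 factors, 5 had their highest levels at Day 0, before RA, and Fgf5 lay between 0.105 and 2.08 CPM over all libraries.

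Naive and core pluripotency genes fell with the formative factors. Of 10 naive factors, 9 were called lower at Day 4 in both lines, with medians of −3.87 in shSC and −3.82 in shCTSL, and Tbx3 was at 0.02 and 0.05. Both core factors, Pou5f1 and Sox2, were called lower. Of all genes, 28.7% were called lower and 32.1% higher at Day 4 in shSC, and 27.6% and 32.3% in shCTSL. The medians over all genes were 0.03 and 0.06. Among 8 ERK feedback genes, which share the upstream signal of Etv5, 5 were called lower and 1 higher at Day 4 in each line. Spry4 fell by 4.28 by Day 2 in shSC, while Dusp6 was at 0.20 by Day 2 and then fell by 1.84 to Day 4. Timing differed among the other genes of this list. Mean shSC levels at Day 0, Day 2 and Day 4 were 214, 35.2 and 24.9 CPM for Spry2 and 21.1, 47.1 and 53.2 for Spry1. For Spred2 they were 88.2, 96.7 and 73.0. A link of this signal to the timing of Etv5 was not tested.

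Markers of the tissues in which some of the factors are used again were also measured. The 4 anterior neural markers (Six3, Rax, Lhx2 and Hesx1), which accompany Otx2 in the forebrain, summed to 6.76 to 9.84 CPM at Day 4, with Six3 below the filter and Lhx2 the one called higher at Day 4 in both lines. The 5 neural crest markers (Sox10, Pax3, Tfap2a, Snai2 and Sox9), which accompany Foxd3, summed to 80.5 to 101 CPM at Day 4, most of it Sox9. In each line 3 of the 5 were called higher at Day 4 than at Day 0 and none lower. The shSC mean of Snai2 went from 1.22 to 23.7 CPM and that of Pax3 from 0.169 to 0.893. Sox10 stood at 0.0442 to 0.595 CPM in the Day 4 libraries. The 8 endoderm markers summed to 12.8 to 16.5 CPM at Day 0 and to 528 to 607 at Day 4, and all 8 were called higher in both lines. Between these days 32.1% of all genes were called higher and 28.7% lower in shSC, and 32.3% and 27.6% in shCTSL. Ttr was at 0 in all 4 Day 0 libraries. The 5 mesoderm markers and the 4 germ cell markers summed to at most 23.7 and 229 CPM in any library. Of the 4 mesoderm markers tested, 2 were called higher at Day 4 than at Day 0 in each line. Called lower were 1 in shSC and 2 in shCTSL. Of the germ cell markers, 2 were called higher in each line and none lower. With all 12 libraries no gene of the marker lists was called between the lines on any day. With both shCTSL Day 2 libraries left out, the germ cell marker Prdm1 was called at Day 0 (−0.96, adjusted p = 0.00112), and the endoderm marker Sox17 (−0.62, adjusted p = 0.0167) and the mesoderm marker Hand1 (0.59, adjusted p = 0.021) were called at Day 4, 1 and 2 of the 28 markers tested.

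Among all genes, those nearest in pattern were found by the Euclidean distance between the 6 group means of log2 CPM, each gene centered on its own mean. Nefl, a neurofilament gene, was nearest to Pou3f1 at a distance of 0.445, with 22.8 and 23.5 CPM at Day 0, 2.09 and 1.58 at Day 2 and 4.51 and 5.83 at Day 4 in shSC and 3.14 and 2.90 at Day 4 in shCTSL. Slc7a3, an amino acid transporter gene, was nearest to Foxd3 at 0.437, and the naive factor Nr0b1 came next at 0.641. Irak3 was nearest to Otx2 at 0.285, Tspan15 to Zic2 at 0.224, Slc4a5 to Zic5 at 0.355, Odf2 to Sall4 at 0.147 and Dppa4, a pluripotency-associated gene, to Etv5 at 0.456. Among the 7 factors themselves Zic5 and Sall4 were closest, at 1.71, and Zic2 and Foxd3 farthest apart, at 8.30. These distances rest on 6 group means and describe the pattern alone.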

How the data were processed

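Poly(A) RNA had been made into directional libraries by the authors. Their alignment to mm9 used STAR 2.3.0e, poorly mapped reads were dropped using SAMtools 0.1.19, and featureCounts 1.6.2 gave the reads of each RefSeq gene. Neither the labels nor the methods name the strand setting used for counting. The deposited values are raw counts, not normalized, for 24495 genes in 12 libraries. Labels WT and scr were taken as shSC and KD as shCTSL.

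Counts were analyzed with edgeR 4.0.16 in R 4.3.3. Genes passing filterByExpr with a minimum count of 10 were kept, all 12 libraries were fitted together with a mean for each of 6 groups after TMM normalization, and the quasi-likelihood test was used. Benjamini-Hochberg adjustment covered all genes tested, and a call needed an adjusted p under 0.05 and a 1.5-fold change. SDs are over 2 libraries and standard errors come from the fit. Alternatives were RLE normalization, DESeq2 1.42.0, 2 other filters, the compared libraries alone, other fold cutoffs, a replicate block, limma-voom (limma 3.58.1) with quality weights, and each library left out in turn. The omission of both shCTSL Day 2 libraries was chosen after seeing the data. The fit was also run on simulated counts with known changes. There each gene had the same spread in all groups, so the wider spread of the shCTSL Day 2 pair was not covered. The members and gene lists were chosen with earlier results of these data known, and some genes of the lists are not reported here. All 7 members are reported in each comparison, in some by call or level alone. For each, genes nearest in pattern among those tested are given, without predicted loci. In the lists the genes with extreme log2 changes were named first, and further genes named were chosen after their values were seen. Positions and exonic lengths are from GENCODE M1 (mm9). The p-values measure the spread between replicates, pooled over the 6 groups, and intervals cover counting error only. Promoters are from RefSeq.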

Additional observations from a re-analysis of the deposited data

Results flagged for a closer look

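The lines took opposite order on different days for 3 factors, with no overlap between the libraries compared, as did 18.1% of all genes tested. Pou3f1 was higher in both shCTSL libraries at Day 2 and lower in both at Day 4, a change in the log2 line difference of −1.76, which the test of that difference did not call (adjusted p = 0.932 with edgeR). Foxd3 was lower in both shCTSL libraries at Day 0 and higher in both at Day 2, a change of 0.67 that was not called either (adjusted p = 0.413 with edgeR). Etv5 was lower in shCTSL at Day 0 and higher at Day 4, a change of 0.38 that was not tested.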

How the results depend on the processing

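Of 1798 values of single factors under the alternatives, 1712 kept their direction and their side of the threshold, 38 became called, 14 were no longer called and 34 turned sign, none of the last called with all 12 libraries. Of the 14 lost calls, 8 came from a log2 cutoff of 1.5, which ended those of Sall4 and Etv5 from Day 0 to Day 2 in both lines, where 4 of 6 calls were left, and those of Zic2 from Day 2 to Day 4 and from Day 0 to Day 4 in both lines. Replicate numbers did not pair the samples (correlations of deviations −0.47 to 0.26 between groups), and the replicate block gave the same number of calls, 6, 5 and 6 in shSC and 6, 4 and 6 in shCTSL, and turned Zic5 to 0.0094 for the line difference in the Day 2 to Day 4 change. The shCTSL Day 4 against Day 2 count of 4 fell to 1 with only the libraries compared and to 2 with limma-voom, and ran from 3 to 6 with single libraries left out. The count between lines at Day 0 was 1 with only the libraries compared and without both shCTSL Day 2 libraries, and 0 to 1 with each library left out. The count at Day 4 was 1 with DESeq2, with no filter, with only the libraries compared, with limma-voom and without both shCTSL Day 2 libraries, and 0 to 1 with each library left out. At Day 2 and for the mean over days it was 0 to 1 with each library left out, and for the line difference in the Day 2 to Day 4 change it was 1 with DESeq2 and 0 to 2 with each library left out. The shCTSL Day 2 libraries were the ones whose omission added these calls. For that last comparison, RLE normalization gave Zic2 0.0105 and Foxd3 0.0011, DESeq2 gave Zic2 0.0104, Zic5 0.038 and Foxd3 0.0059, and limma-voom gave Zic5 0.13. With each library left out, its values ran from −0.15 to 0.092 for Zic2, −0.65 to 1.27 for Zic5, −0.38 to 0.27 for Foxd3, −0.18 to 0.012 for Sall4 and −0.0895 to 0.56 for Etv5. The other ranges that crossed 0 were, for Zic5, −0.0516 to 0.40 (shSC Day 2 against Day 0), −0.85 to 1.104 (shCTSL Day 2 against Day 0), −1.78 to 0.16 (shCTSL Day 4 against Day 2) and −1.02 to 0.89 (line difference in the Day 0 to Day 2 change), for Pou3f1, −0.19 to 0.0903 (shCTSL Day 4 against Day 2) and −0.14 to 0.052 (lines at Day 0), for Zic2, −0.24 to 0.0053 (lines at Day 4), for Sall4, −0.12 to 0.0857 (lines at Day 2), and for Etv5, −0.40 to 0.26 (lines at Day 2), −0.15 to 0.0729 (mean over days) and −0.17 to 0.47 (line difference in the Day 0 to Day 2 change). Where an omission leaves 1 library in a group, that library is assumed to vary like the other groups. Apart from the shCTSL Day 2 libraries, the cause of these changes was not tested. Depth limits Otx2 at Day 4, which rests on 1 to 7 reads in each library.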
